A study of Mus musculus with 8 samples.

Results

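Il1a, Osm, Il17a and Inhba encode secreted signals of 4 different cytokine families, and all 4 were listed with higher levels in intestinal epithelial cells (IECs) of *Efhd2*f/f Vil1cre/+ mice than of *Efhd2*f/f mice on day 7 of dextran sulfate sodium (DSS) colitis. The genes were chosen by name from the authors' day 7 table, which lists 128 genes selected on their difference between these genotypes, so the levels below describe that difference and are no test of it. On day 0 the authors listed 309 genes, and 0 of the 4 cytokine genes were among them, by symbol or by gene ID.

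RNA came from the colonic IEC fraction, with 2 libraries in each of 4 groups. These were *Efhd2*f/f Vil1cre/+ (labelled Efhd2-deficient) and *Efhd2*f/f (labelled Wildtype), each without DSS (day 0) and on day 7 of colitis. The study used mice of both sexes aged 8 to 10 weeks in its animal experiments, and the sex of the sequenced mice is not named. In the study's colitis protocol DSS was drunk for 6 days and water thereafter. The dose for the sequenced mice is not named. All groups carry loxP sites around exon 2 of *Efhd2*, and Cre driven by the villin promoter is in the *Efhd2*f/f Vil1cre/+ mice alone. It deletes the gene in intestinal epithelium, so leukocytes and stromal cells keep *Efhd2* in both genotypes. The IEC fraction was the cells shaken off the opened colon in EDTA and strained, with no sort. Whether a library came from 1 animal or from a pool is not given.

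IL-1α, the product of *Il1a*, acts as an alarmin: epithelial and myeloid cells hold it ready and release it on damage, and it signals through the IL-1 receptor and MyD88. Oncostatin M, from *Osm*, belongs to the IL-6 family and signals through its receptor OSMR paired with gp130 to STAT3. It is made mainly by neutrophils, monocytes and T cells, and is known in inflammatory bowel disease for its action on stromal cells. IL-17A is made by T helper 17 cells, γδ T cells and innate lymphoid cells and drives epithelial antimicrobial and neutrophil-attracting genes. *Inhba* encodes the βA chain whose dimer is activin A, a TGF-β family ligand acting through SMAD2 and SMAD3 in repair and fibrosis.

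All 4 genes lie on different chromosomes of GRCm38, the build of the deposited coordinates, and these matched GENCODE release M21 for each. *Il1a* (ENSMUSG00000027399, 7 exons) lies on the minus strand of chromosome 2 from 129299610 to 129309972, 54597 bases from *Il1b*, the next coding gene on that side. *Osm* (ENSMUSG00000058755, 3 exons) lies on the plus strand of chromosome 11 from 4236420 to 4241026, 16530 bases before *Lif*, another IL-6 family gene. *Il17a* (ENSMUSG00000025929, 3 exons) lies on the plus strand of chromosome 1 from 20730905 to 20734496, 42649 bases before *Il17f*. *Inhba* (ENSMUSG00000041324, 5 exons) lies on the plus strand of chromosome 13 from 16011851 to 16031621. *Il17f* was the only one of the adjacent coding genes on either side that was itself listed on day 7. *Il1b* and *Lif* were not listed, and their levels were not analysed here.

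The sequences just upstream of the start sites are shown because these genes were listed together. RefSeq promoters (GRCm38.p6) were given for 3 of the 4 genes, *Il1a*, *Il17a* and *Inhba*, and in each the first transcribed base was the gene start in the deposited table. The 250 bases before it run 5′ to 3′ on the gene's strand, at chr2:129309973-129310222 (minus strand), chr1:20730655-20730904 (plus) and chr13:16011601-16011850 (plus). Capitals mark every match to the motifs searched on both strands: the TATA box (TATAAA), AP-1 (TGANTCA), STAT (TTCNNNGAA), CRE (TGACGTCA), RORE (AGGTCA) and the NF-κB consensus.
Il1a: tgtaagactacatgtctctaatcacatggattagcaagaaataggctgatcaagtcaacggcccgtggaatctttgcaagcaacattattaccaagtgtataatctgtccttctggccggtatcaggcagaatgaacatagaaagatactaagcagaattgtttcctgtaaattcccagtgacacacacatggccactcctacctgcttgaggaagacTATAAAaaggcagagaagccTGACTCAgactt
Il17a: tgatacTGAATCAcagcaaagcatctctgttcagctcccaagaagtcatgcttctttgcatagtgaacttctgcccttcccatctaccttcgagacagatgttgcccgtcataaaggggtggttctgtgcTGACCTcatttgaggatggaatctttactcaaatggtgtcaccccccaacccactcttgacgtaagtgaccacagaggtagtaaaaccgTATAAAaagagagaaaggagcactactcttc
Inhba: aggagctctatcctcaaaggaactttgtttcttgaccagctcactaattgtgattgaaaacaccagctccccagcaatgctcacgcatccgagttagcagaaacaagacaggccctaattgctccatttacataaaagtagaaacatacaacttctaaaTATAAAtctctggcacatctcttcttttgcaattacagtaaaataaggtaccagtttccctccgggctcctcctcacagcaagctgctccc

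Each of the 3 promoters held TATAAA, which 12.4% of all 32851 RefSeq promoter windows of this length held. It began 32 bases before the start site in *Il1a*, 31 bases before it in *Il17a* and 91 bases before it in *Inhba*. AP-1 matches stood in *Il1a* (12 bases before the start) and *Il17a* (244 bases before it), against 6.75% of all promoters. *Il17a* also held AGGTCA, the core of RORE, the element read by the RORγt family, on the opposite strand 120 bases before the start. This core stood in 14% of promoters, and a longer element was not searched for. STAT, NF-κB and CRE, present in 7.02%, 7.25% and 1.55% of promoters, had no match in these windows, and no match overlapped another.

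The transcripts also shared a feature of many cytokine mRNAs, AU-rich pentamers (ATTTA) in the 3′ UTR, which are known to bind proteins that speed mRNA decay. The 3′ UTR of *Il17a* has 637 bases and 7 pentamers, and 0.466% of 1073 other 3′ UTRs within 10% of that length had at least as many. *Inhba* has 4492 bases with 21 pentamers (2.10% of 476 others had as many) and *Osm* 1017 bases with 6 (4.19% of 1313). *Il1a*, with 3 in 1101 bases, was not unusual in this respect, since 37.1% of 1307 others had as many. The longer AU-rich motif TTATTTATT was found in *Inhba* alone among the 4, at 3 positions, and in 19.3% of 3′ UTRs of like length. For each 3′ UTR, read from GENCODE transcripts, 30 bases with the most pentamers are shown, with these in capitals. Other stretches held as many in *Il1a*, *Osm* and *Inhba*.
Il1a, bases 579 to 608 of the 3′ UTR: tctatgtATTTAtaaatatATTTAtgataa
Osm, bases 936 to 965: ttttatATTTAtaaggcctATTTAtaatgt
Il17a, bases 344 to 373: ATTTAtatgagctATTTAtgaatctATTTA
Inhba, bases 1913 to 1942: tcaacttatATTTAttATTTAttggaatca

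**Figure D1:**
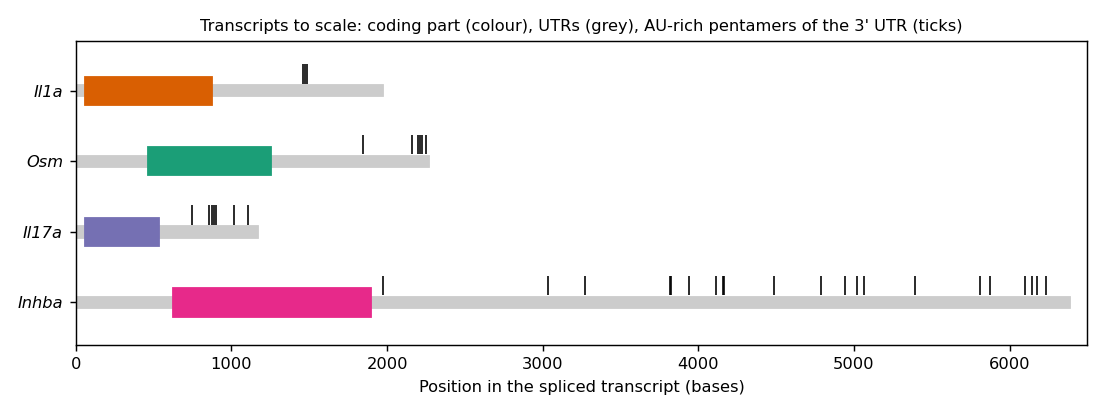
Spliced transcripts of the 4 cytokine genes drawn to scale in bases, with the coding part in colour, the UTRs in grey and a tick at each ATTTA of the 3′ UTR. The 7 ticks of Il17a crowd a 3′ UTR of 637 bases, and the 21 of Inhba spread over 4492.

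The deposited values are normalized counts, given separately for the 4 libraries of each day. How the authors scaled them is not stated. Here differences are given on log2(value + 1), *Efhd2*f/f Vil1cre/+ minus *Efhd2*f/f, with the standard error from the libraries. With 2 libraries against 2 an exact two-sided permutation test cannot give a p below 0.333. *Efhd2* itself was lower in the *Efhd2*f/f Vil1cre/+ libraries of day 0 (556 and 713, against 2663 and 2686). It is not among the genes the authors called different on day 7, and its level there was not analysed here. A loss of *Efhd2* was therefore not shown in the RNA of the day 7 libraries, whose genotype rests here on their labels. The study states that its mice were genotyped by PCR. It also reports the deletion in IECs of this genotype by PCR, qPCR and immunostaining. How deeply the libraries were sequenced is unknown. Their values summed to between 71972 and 614168 over the table of 128 genes. Epithelial markers (*Epcam*, *Vil1*, keratins and others) numbered 0 of 16 on the day 7 list, so the cell type on the label could not be checked there.

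*Il1a* was at 1241 normalized counts in library 65 and 695 in library 71 of *Efhd2*f/f Vil1cre/+ IECs, and at 88.7 in library 67 and 292 in library 68 of *Efhd2*f/f IECs. The means were 968 ± 386 and 191 ± 144 (SD, n = 2 each), a ratio of 5.08 and a log2 difference of 2.52 (SE 0.95). The genotypes did not overlap, but the lower *Efhd2*f/f Vil1cre/+ library stood 2.38-fold above the higher *Efhd2*f/f library, less than the 3.30-fold between the *Efhd2*f/f libraries themselves.

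*Osm* was the most even of the 4, at 1401 and 969 normalized counts in libraries 65 and 71 against 251 and 503 in libraries 67 and 68. Its means were 1185 ± 305 and 377 ± 178, a ratio of 3.14 and a log2 difference of 1.71 (SE 0.57). The nearest libraries of the genotypes were 1.93-fold apart, about as far as the *Efhd2*f/f libraries from each other (2.0-fold). Among the 117 listed genes with a positive difference the smallest was 1.5 (*Plet1*), so *Osm* stood near the lower edge of the list, at rank 105 of 128 by log2 difference. Genes outside the list were not analysed here.

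*Il17a* had the lowest level of the 4 and, on log2(value + 1), the largest difference. It was at 77.3 and 37.0 normalized counts in libraries 65 and 71 and at 1.61 and 7.65 in libraries 67 and 68, with means of 57.1 ± 28.5 and 4.63 ± 4.27, a ratio of 12.3 and a log2 difference of 3.52 (SE 1.01). The nearest libraries were 4.84-fold apart, and the *Efhd2*f/f libraries 4.75-fold. In library 67 the lowest values above 0 were 0.820 and 0.877, followed by 1.61 and 1.64, so *Il17a* was among the lowest values there. A ratio against that level has a wide counting error, which the deposited values do not allow to be computed. With 10 added to each value in place of 1, the difference of *Il17a* was 2.16. It then lay below those of *Inhba* (2.76) and *Il1a* (2.44).

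*Inhba* differed most between the libraries of *Efhd2*f/f Vil1cre/+ IECs, at 858 in library 65 and 271 in library 71. It was at 44.8 and 87.4 in libraries 67 and 68, giving means of 565 ± 415 and 66.1 ± 30.2, a ratio of 8.55 and a log2 difference of 2.93 (SE 0.96). The nearest libraries were 3.10-fold apart, close to the 3.17-fold between libraries 65 and 71.

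**Figure D2:**
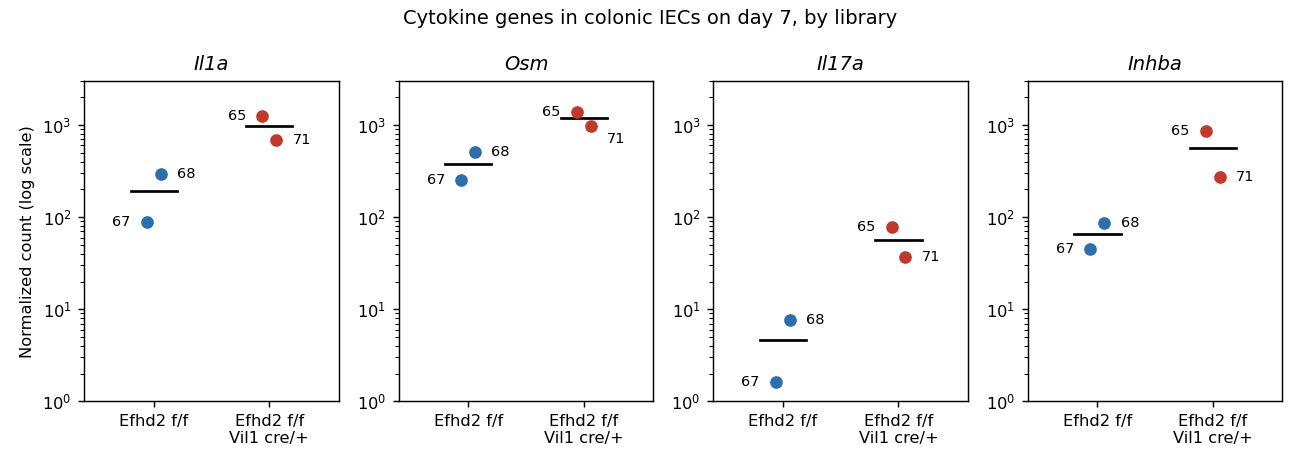
Normalized counts (log scale) of the 4 cytokine genes in each day 7 library, blue for Efhd2f/f (67, 68) and red for Efhd2f/f Vil1cre/+ (65, 71), with a bar at each mean of 2 libraries. No gene's genotypes overlap, and in every panel library 65 lies above 71 and library 68 above 67.

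Non-overlap set none of the 4 apart from the rest of the table. Libraries 65 and 71 both exceeded libraries 67 and 68 for the 4 cytokine genes, as they did for 116 genes out of 128 (90.6%), while 11 genes had the opposite order (8.59%), as the selection of the list would largely fix. Of 110 genes that stood above and had a value over 0 in every library, 70 had a gap between genotypes wider than the spread within either, and of the 4 cytokine genes only *Il17a* did. By log2 difference *Il17a* ranked 27, *Inhba* 38 and *Il1a* 65, around a median of 2.53 over all listed genes. Scaling every library to the same sum of its listed genes lowers that median by 2.41 by construction, since most listed genes were selected as higher, and so bears on no gene's direction. After this scaling, 33 listed genes stood above and 35 below without overlap. *Osm* was then at -0.71, with both *Efhd2*f/f Vil1cre/+ libraries below both *Efhd2*f/f libraries. The genotypes overlapped for *Il1a*, *Il17a* and *Inhba*. With *Reg3b* and *Reg3g*, the genes of highest mean, left out of the sums, *Il1a*, *Il17a* and *Inhba* stood above without overlap and *Osm* overlapped.

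**Figure D3:**
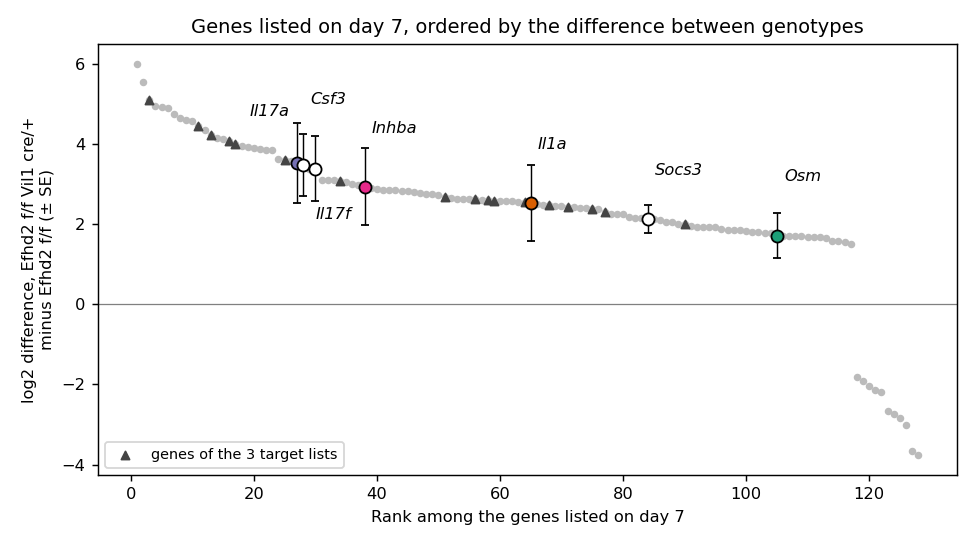
Log2 difference between genotypes for the 128 genes listed on day 7, in rank order, with SE bars (n = 2 each) on the 4 cytokine genes (coloured) and on Csf3, Il17f and Socs3 (white), and triangles for genes of 3 lists of cytokine targets. Il17a, Csf3 and Il17f sit together near 3.5 and Osm lies at 1.71.

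Per kilobase of gene length, *Osm* and *Il1a* had higher levels than *Inhba* and *Il17a*. In *Efhd2*f/f Vil1cre/+ IECs *Osm* was at 522 ± 134 and *Il1a* at 490 ± 195 normalized counts per kb, followed by *Inhba* at 88.4 ± 65 and *Il17a* at 48.8 ± 24.3. The ranges over the libraries overlapped for *Osm* and *Il1a*, and for *Inhba* and *Il17a*, although *Inhba* exceeded *Il17a* within each library. The ranges of *Osm* and *Il1a* lay above those of the other two. In *Efhd2*f/f IECs the order was *Osm* (166 ± 78.4), *Il1a* (96.5 ± 72.9), *Inhba* (10.3 ± 4.72) and *Il17a* (3.96 ± 3.65), where the ranges of *Osm* and *Il1a* again overlapped and those of *Inhba* and *Il17a* did not.

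Ratios of one cytokine gene to another within a library do not depend on the scaling if each library was multiplied by a single factor. Whether this was so is not known, since the deposited values are not whole multiples of a common step in each library. The per-length ratio of *Il1a* to *Osm* was 1.02 and 0.825 in libraries 65 and 71 and 0.407 and 0.669 in libraries 67 and 68, so *Il1a* stood higher relative to *Osm* in both *Efhd2*f/f Vil1cre/+ libraries. *Osm* exceeded *Il17a* 9.34-fold and 13.5-fold in libraries 65 and 71 against 80.3-fold and 33.9-fold in libraries 67 and 68. *Osm* exceeded *Inhba* 4.59-fold and 10.1-fold against 15.8-fold and 16.2-fold. In these ratios *Osm* moved least of the 4 genes between the genotypes. The ratio of *Il1a* to *Inhba* overlapped between them (4.68 and 8.30 against 6.42 and 10.8). *Il1a* exceeded *Il17a* 9.53-fold and 11.1-fold in libraries 65 and 71 against 32.6-fold and 22.7-fold in libraries 67 and 68. The ratio of *Il17a* to *Inhba* was higher in both *Efhd2*f/f Vil1cre/+ libraries, but only narrowly (0.491 and 0.745 against 0.197 and 0.478).

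Libraries of the same genotype also ranked alike for the 4 genes. The authors' selection used the spread within a genotype but not which library was the higher. The 4 genes were chosen with earlier results of these data known. All 4 were higher in library 65 than in 71, by 0.53 (*Osm*) to 1.66 (*Inhba*) on the log2 scale, as were 44 of the 128 listed genes (34.4%), whose median over all was -0.32. All 4 were higher in library 68 than in 67, by 0.95 to 1.73, as were 99 of 128 (77.3%, median 0.88). Both orders together held for the 4 cytokine genes and for 37 of 128 listed genes (28.9%). Neutrophil markers went the other way between the *Efhd2*f/f Vil1cre/+ libraries: 15 of 15 listed markers were higher in library 71, with a median of -1.62 for library 65 minus 71, while 12 of 15 were higher in library 68 than in 67. Each such comparison is of 1 library with 1 library.

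**Figure D4:**
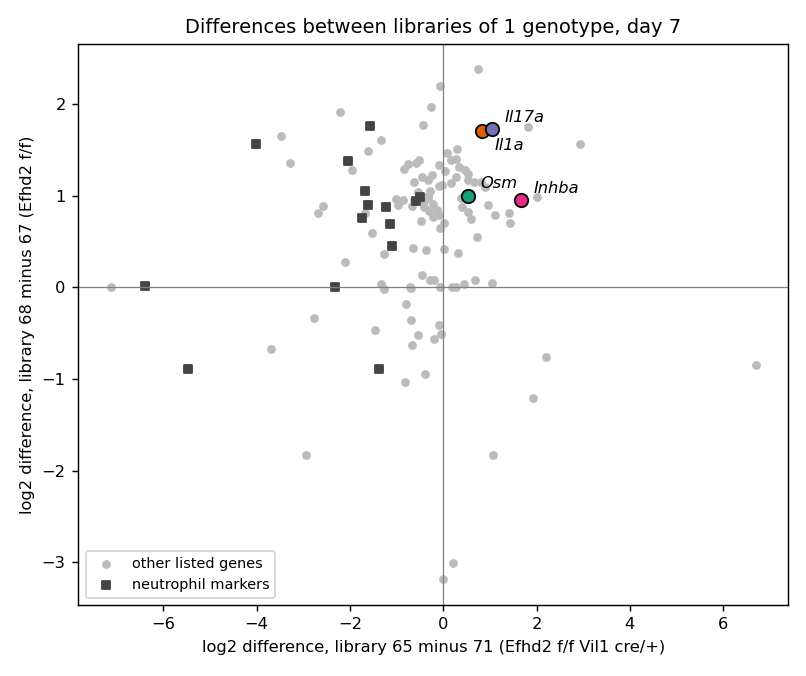
Each point is 1 of the 128 genes listed on day 7, placed by its log2 difference between the Efhd2f/f Vil1cre/+ libraries (65 minus 71, x axis) and between the Efhd2f/f libraries (68 minus 67, y axis). The 4 cytokine genes lie at the upper right, and the 15 neutrophil markers (squares) all lie left of 0.

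Markers of other cells were in the day 7 table as well. Of 22 neutrophil markers 15 were listed, all 15 higher in *Efhd2*f/f Vil1cre/+ IECs, beside 90.6% of all listed genes, with a summed level of 23218 to 69632 normalized counts against 4644 to 7939. *S100a9*, *S100a8* and *Lcn2*, which epithelium can also express, and the granule gene *Ngp* were the most abundant. *Ngp* was at 90.6 in library 65 and 7712 in library 71, against 12.1 and 12.2. *Stfa2*, named after its values were seen, was at 0 in both *Efhd2*f/f libraries. Of 21 monocyte and macrophage markers 4 were listed (*Cd14*, *Fcer1g*, *Fcgr3* and *Spp1*), summing to 14343 to 14430 against 2823 to 4860. Most of these sums was *Cd14*, at 11963.5 and 13045.8 in libraries 65 and 71 and at 2458 and 4394 in libraries 67 and 68. Among 22 markers of T, NK and innate lymphoid cells, the cells known to make IL-17A, 0 were listed on day 7, and of 13 stromal markers 2 were (*Vim* and *Fn1*). In bulk RNA more cells of a type and more RNA per cell cannot be told apart, and the part of these cells in the cytokine levels was not tested.

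Set against 1000 counts of the listed neutrophil markers of the same library, the genotypes overlapped for all 4 cytokine genes. The markers that could be used are those the authors listed, 15 of 22 here and 4 of 21 for monocytes and macrophages, and all of them were listed as higher in *Efhd2*f/f Vil1cre/+ IECs. Dividing by them therefore lowers the values of these IECs by construction, and the overlap gives no sign of where the cytokine RNA came from. *Il17a* was then at 3.33 and 0.531 in libraries 65 and 71 and at 0.347 and 0.964 in libraries 67 and 68, and *Il1a* at 53.5 and 9.99 in libraries 65 and 71 and at 19.1 and 36.8 in libraries 67 and 68, *Osm* at 60.3 and 13.9 against 54.1 and 63.4, and *Inhba* at 37.0 and 3.89 against 9.64 and 11. Library 71 was lowest for these 3 genes. The counts of the listed monocyte and macrophage markers were mostly those of *Cd14*. Against 1000 of these counts, *Il1a* (86.0 and 48.5 against 31.4 and 60.1) and *Osm* (97.1 and 67.6 against 89.0 and 103) still overlapped. *Il17a* stood higher in both *Efhd2*f/f Vil1cre/+ libraries (5.36 and 2.58 against 0.571 and 1.57), and *Inhba* did so narrowly (59.5 and 18.9 against 15.9 and 18).

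**Figure D5:**
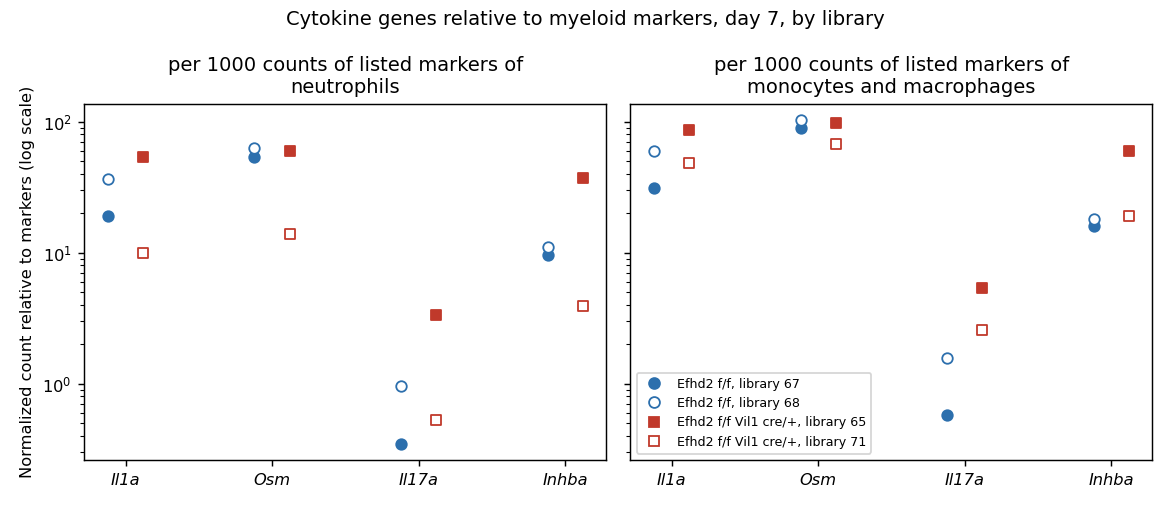
Normalized counts of the 4 cytokine genes per 1000 normalized counts of the listed neutrophil markers (left) and of the listed monocyte and macrophage markers (right), on a log scale, with 1 point for each day 7 library. The genotypes overlap for all 4 genes on the left and for Il1a and Osm on the right, where both denominators hold only markers listed as higher in Efhd2f/f Vil1cre/+, which lowers the red points by construction.

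The genes with the most similar profile over the 4 libraries were found by the distance between log2 values centred on each gene's mean, where 0 is an identical pattern. For *Il1a* they were *Slc7a9*, *Pfkfb3*, *Hmox1*, *Ptges* and *Hba-a2*, at distances from 0.41 to 0.57. *Ptges* encodes a prostaglandin E synthase and *Hmox1* heme oxygenase. *Osm* had the closest neighbours: *Abca1*, *Mal*, *Stom*, *Cxcl2* and *Clec4e*, at 0.25 to 0.43. *Cxcl2* encodes a neutrophil chemoattractant and *Clec4e* the myeloid lectin receptor Mincle. For *Il17a* they were *Csf3* (0.55), *Igkv4-61* (0.68), *Il17f* (0.71), *Saa3* (0.83) and *Inhba* (0.92). *Inhba* was nearest to *Timp1* (0.42), an inhibitor of matrix metalloproteinases, and then to *Il17f*, *Slpi*, *Slc7a9* and *Ptges* (0.50 to 0.75). Among the 4, *Il1a* and *Inhba* were most alike (0.89) and *Osm* and *Il17a* least (1.92). These are descriptions over 4 libraries that may share their scaling.

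The families of the 4 cytokines were otherwise sparse in the day 7 table. Of 92 genes for ligands, receptors and mediators of the IL-1, gp130, IL-17 and activin and TGF-β families, 6 were listed on day 7 and 0 on day 0. *Gdf15*, a distant TGF-β family ligand counted here among the other cytokines, was listed on day 0. The 6 were the 4 cytokine genes, *Il17f* and *Socs3*. None of the receptors *Il1r1*, *Osmr*, *Il6st*, *Il17ra* or *Acvr2a* was listed. *Il17f*, whose product pairs with IL-17A and shares its receptor, was at 39.6 and 14.4 normalized counts in libraries 65 and 71 and at 0.820 and 2.19 in libraries 67 and 68, a log2 difference of 3.38. Its lowest value is the lowest above 0 in library 67. The per-length ratio of *Il17a* to *Il17f* was 3.37 and 4.43 in libraries 65 and 71 and 3.39 and 6.02 in libraries 67 and 68, and so overlapped between the genotypes. *Socs3*, the STAT3-induced feedback inhibitor of gp130 signaling, was at 6118 and 6081 against 1093 and 1774, a log2 difference of 2.13 with nearly equal *Efhd2*f/f Vil1cre/+ libraries.

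Known targets of these cytokines were listed in larger number. The lists were chosen with earlier results of these data known, so the counts are no measure of enrichment. Across 3 lists holding 64 target genes, the day 7 table held 19, and each of the 19 stood above without overlap (as did 90.6% of all listed genes), with a median log2 difference of 2.61 beside 2.53 over all. Of 25 epithelial IL-1 and IL-17 targets 10 were listed, among them the antimicrobial lectin genes *Reg3b* (3.99) and *Reg3g* (4.21) and *Lcn2* (3.59), which encodes an iron-sequestering protein. *Csf3*, which encodes the granulocyte growth factor G-CSF and was the only listed gene among 31 other cytokines, was at 319 and 260 against 14.5 and 43.0, a log2 difference of 3.47. Of 28 gp130 and acute-phase targets 9 were listed, including *Saa3* (3.08) and *Hp* (2.29), and of 16 TGF-β and activin targets 3, *Fn1* (2.38), *Mmp9* (2.47) and *Spp1* (2.67). *Reg3b*, *Reg3g* and *Saa3* are on both the IL-1 and IL-17 list and the gp130 list, so the counts of these lists overlap. *Lcn2*, *Mmp9*, *S100a8* and *S100a9* are on the neutrophil marker list too.

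On day 0 fewer targets were listed. Of the 64 genes 8 were listed, 3 standing above without overlap in *Efhd2*f/f Vil1cre/+ IECs (32.0% of all 309 genes listed that day) and 5 below (67%). Nitric oxide synthase gene *Nos2* was at 38.5 and 46.4 normalized counts in *Efhd2*f/f Vil1cre/+ IECs and at 145 and 220 in IECs that kept *Efhd2* (-2.05 on the log2 scale). *Saa3* was lower too (-1.46), as was *Duox2*, an epithelial oxidase gene (-1.22). *Cxcl1*, which encodes a neutrophil chemoattractant and is named after its values were seen, was higher, at 19.3 and 16.7 against 0.966 and 4.28 (2.55). *Bcl3* (1.1) and *Thbs1*, which encodes thrombospondin 1 (1.18), were higher too, and *Tgfbi* (-1.36) and *Spp1* (-2.85) lower. Since the 2 tables may have been scaled separately, levels were not compared across days, and a gene that is not listed may still be expressed: the levels of *Il1a*, *Osm*, *Il17a* and *Inhba* on day 0 were not analysed here.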

How the data were processed

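RNA from the colonic IEC fraction was sequenced in 8 libraries, 2 for each genotype and day. The submitters' processing notes name CASAVA 1.8, fastp, HISAT2 2.0.5, featureCounts 1.5.0-p3 and DESeq2 1.20.0 and the build GRCm38. The authors deposited 1 table a day, holding for each gene a normalized count per library (a signal that is not whole, from which whole reads were not recovered), the mean of each genotype, and columns of their own fold changes and p-values, which gave no value here. The deposited tables hold only genes the authors called, at the thresholds the study states for fold change and adjusted p-value, which every row meets. Columns name genotype and day, and their numbers (51, 53, 50 and 52 on day 0 and 65, 71, 67 and 68 on day 7) differ from the replicate numbers in the labels. Values under 1e-06 (18 on day 0, 14 on day 7) were taken as 0.

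Means of the normalized counts, log2(value + 1), SDs, standard errors, ratios and profile distances were computed with Python 3.11.15, pandas 2.3.3 and numpy 2.4.6, checked on simulated data, and plotted with matplotlib 3.10.9. Such log2 differences understate the change of low genes. No test was run, because the 4 genes and every other gene of the table were selected on the same contrast, and no count model because no counts are held. The 4 genes, the gene lists and the searches were chosen with earlier results of these data known. Besides the 4 cytokine genes, the text names at most 6 listed genes of each cytokine or target list on day 7 and 3 on day 0, by mean level, 4 of each marker list, the 5 nearest profiles of each gene, and *Efhd2*. Genes that are not listed, *Plet1*, *Stfa2* and *Cxcl1* are named outside this rule, after their values or absence were seen. Alternatives were pseudocounts of 0.1 and 10, equal library sums over the listed genes (also without the 2 of highest mean), the ratio of arithmetic means, a mean of at least 50, and each library left out in turn. Transcript features came from GENCODE M21 (the coding transcript with the longest coding part per gene, 3′ UTRs of at least 100 bases, 19141 genes).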

Additional observations from a re-analysis of the deposited data

Results flagged for a closer look

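Of the named genes, 5 were listed on both days with opposite directions: both *Efhd2*f/f Vil1cre/+ libraries were below both *Efhd2*f/f libraries on day 0 and above both on day 7. The difference between the days was not tested, since the tables may have been scaled separately. The log2 difference on day 7 exceeded that on day 0 by 6.50 for *Nos2* (4.45 and -2.05), by 5.52 for *Spp1* (2.67 and -2.85), by 4.54 for *Saa3* (3.08 and -1.46), by 3.84 for *Fcer1g* (1.85 and -1.98) and by 3.06 for *Abca1* (1.93 and -1.13). *Spp1* was at 1.01 and 0 normalized counts in the *Efhd2*f/f Vil1cre/+ libraries of day 0. *Abca1* is the gene with the profile closest to that of *Osm*, and *Saa3* is among the 5 closest to *Il17a*. In all, 9 genes were listed on both days, and 7 of them in opposite directions. Most genes listed on day 0 were lower in *Efhd2*f/f Vil1cre/+ IECs, and most genes listed on day 7 were higher. Opposite directions would therefore be common among shared genes without any link between the days, and the count is no sign of such a link.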

How the results depend on the processing

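With equal sums over the listed genes, the log2 difference was 0.10 for *Il1a*, 0.52 for *Inhba* and 1.42 for *Il17a*, and -0.71 for *Osm*, and 68 of the listed genes did not overlap between the genotypes, against 127. Most listed genes were selected as higher, so this scaling lowers them by construction and says nothing of a gene's direction. When *Reg3b* and *Reg3g*, the genes of highest mean, were left out of the sums, the median moved by -1.48 and the values were 1.04, 1.45, 2.27 and 0.23. A pseudocount of 10 gave 2.16 for *Il17a*, which was then no longer the largest of the 4. The other pseudocounts and the ratio of arithmetic means moved none of the 4 by more than the spread between replicates. Leaving out 1 library at a time, the values ranged from 1.66 to 3.37 for *Il1a*, 1.21 to 2.21 for *Osm* and 2.66 to 4.38 for *Il17a* (lowest without library 67 and highest without library 68), and from 2.10 to 3.76 for *Inhba* (lowest without library 65 and highest without library 71). With a mean of at least 50, 104 listed genes did not overlap, *Il17a* and *Il17f* fell out, and 3 of the 5 nearest profiles of *Il17a* were kept. With a pseudocount of 10, 1 of those 5 was kept, and 3 of 5 for *Inhba*. No paired analysis was run, since the labels name no pairing of mice between the genotypes. The depth of the libraries is unknown, so no counting interval could be given.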

Other observations

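Other cytokine genes were listed on day 0. *Gdf15*, a stress-induced TGF-β family member, was at 466 and 528 normalized counts in *Efhd2*f/f Vil1cre/+ IECs and at 36.1 and 133 in the controls (2.82 on the log2 scale). *Ereg*, which encodes the growth factor epiregulin, was at 103 and 115 against 30.4 and 32.5 (1.76). *Xcl1*, a chemokine of T and NK cells, was lower, at 77.1 and 114 against 383 and 214 (-1.60). On that day 6 of 22 T, NK and innate lymphoid markers were listed, and for all 6 both *Efhd2*f/f Vil1cre/+ libraries were below both *Efhd2*f/f libraries, as were 67% of the 309 genes listed that day. On day 7, 4 of 5 red blood cell markers were listed, all higher, beside 90.6% of all listed genes, with a summed level of 3992 to 4139 normalized counts in *Efhd2*f/f Vil1cre/+ IECs and 562 to 1344 in *Efhd2*f/f IECs, and *Hba-a2* was among the 5 profiles closest to that of *Il1a*.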
